A study of Mus musculus with 6 samples.

Results

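The interferon response genes are genes that type I or type II interferon is known to induce, together with transcription factors that carry the signal. They were taken as the rows of the deposited expression table whose gene symbol equals one of 34 listed symbols, and all 34 were found among its 46959 rows and passed the expression filter that left 12955 genes for testing. RNA was sequenced from haematopoietic stem cells (HSCs) sorted from the bone marrow of 8-week-old control and MaeaCsf1r-Cre littermates, with 3 libraries in each group, to ask how the HSC transcriptome differs when *Maea* is deleted. *Maea* encodes a RING subunit of an E3 ubiquitin ligase complex. Each library came from 2000 sorted HSCs pooled from a pair of mice.

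The MaeaCsf1r-Cre mice carried floxed *Maea* alleles and a *Csf1r*-iCre transgene on a C57BL/6 background. *Csf1r*-Cre is classically a driver for mononuclear phagocytes, so recombination in these mice is not limited to HSCs. The sample labels do not say whether the sequenced controls carried Cre or floxed alleles, and they name no interferon or poly I:C treatment in either group. *Maea* itself was lower in every MaeaCsf1r-Cre library (76.9 to 100.98 CPM) than in every control library (108 to 123 CPM). So were 6.06% of all genes tested. The ratio of the *Maea* means was 0.767, and limma's moderated test gave an adjusted p of 0.967, or 0.218 with the replicate number as a block. CPM is a read count scaled to the total reads of the library and not to transcript length. All 12 HSC markers examined, such as *Kit*, *Procr*, *Hlf* and *Mecom*, were expressed above the filter used for testing, with a summed level of 1506 to 2484 CPM in control and 1054 to 1921 CPM in MaeaCsf1r-Cre libraries.

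Interferons are cytokines that put cells into an antiviral state. Type I interferons signal through the receptor IFNAR and the kinases JAK1 and TYK2 to a complex of STAT proteins with IRF9, which binds the interferon-stimulated response element (ISRE). Interferon gamma, the type II interferon, signals through IFNGR with JAK1 and JAK2 to STAT dimers that bind the gamma-activated site (GAS). Both kinds of interferon are known to bring quiescent HSCs into cycle, and many interferon-induced genes are also expressed in stem cells without infection.

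The promoters of a few genes that the results turn on are shown to give both elements in their sequence context. RefSeq (GRCm38.p6) held a promoter window, running from 250 bases before to 50 bases after the start of transcription, for 26 of the 34 genes. The ISRE was searched as GAAANNGAAA and the GAS as TTCNNNGAA, both on either strand. An ISRE match was found for 16 of the 26 genes (61.5%), against 3.99% of all 27025 genes with a window. A GAS match was found for 7 of the 26 (26.9%), against 9.55% of all genes. Of the 26, 4 held both and 7 held neither. Each stretch below runs 5′ to 3′ along the gene's own strand over the 130 bases before its RefSeq start. It is in lower case, with matches to either motif in capitals. For *Irgm1*, *Gbp2*, *Gbp3* and *Ifit1* that start lies inside the gene as placed by GENCODE, whose positions are given further below. *Igtp* (chr11:58199426-58199555, plus strand), *Irgm1* (chr11:48871421-48871550, minus strand), *Gbp2* (chr3:142620533-142620662, plus strand) and *Gbp3* (chr3:142559914-142560043, plus strand) encode GTPases that were higher in MaeaCsf1r-Cre HSCs. *Ifit1* (chr19:34640759-34640888, plus strand), *Rsad2* (chr12:26456453-26456582, minus strand) and *Isg15* (chr4:156200819-156200948, minus strand) encode antiviral proteins that had lower means there. *Irf1* (chr11:53769884-53770013, plus strand) is the transcription factor whose stretch held a GAS match and no ISRE match.
Igtp: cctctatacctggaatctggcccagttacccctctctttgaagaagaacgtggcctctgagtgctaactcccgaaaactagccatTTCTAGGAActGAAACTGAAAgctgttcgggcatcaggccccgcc
Irgm1: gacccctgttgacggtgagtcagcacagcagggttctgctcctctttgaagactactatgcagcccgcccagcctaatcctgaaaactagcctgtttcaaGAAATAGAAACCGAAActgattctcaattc
Gbp2: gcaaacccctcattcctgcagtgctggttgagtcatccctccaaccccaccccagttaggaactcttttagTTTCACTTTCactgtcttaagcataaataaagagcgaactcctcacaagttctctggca
Gbp3: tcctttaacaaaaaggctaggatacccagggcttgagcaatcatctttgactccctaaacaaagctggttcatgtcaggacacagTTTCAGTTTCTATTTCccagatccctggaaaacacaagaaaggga
Ifit1: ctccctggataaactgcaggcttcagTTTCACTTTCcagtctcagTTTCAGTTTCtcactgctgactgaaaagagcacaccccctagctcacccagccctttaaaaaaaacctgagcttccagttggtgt
Rsad2: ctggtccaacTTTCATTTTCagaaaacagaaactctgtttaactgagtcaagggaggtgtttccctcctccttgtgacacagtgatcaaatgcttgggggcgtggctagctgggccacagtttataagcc
Isg15: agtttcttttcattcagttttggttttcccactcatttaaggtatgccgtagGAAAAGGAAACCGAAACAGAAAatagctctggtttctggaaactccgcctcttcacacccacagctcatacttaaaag
Irf1: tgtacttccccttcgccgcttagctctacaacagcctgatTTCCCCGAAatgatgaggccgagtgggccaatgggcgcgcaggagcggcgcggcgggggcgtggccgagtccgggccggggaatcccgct
In the *Igtp* promoter the ISRE match began 34 bases and the GAS match 45 bases before the start. *Irgm1* and *Gbp3* each held overlapping ISRE matches, and those of *Isg15* formed a run beginning 78 bases before the start. Of the 6 GTPase genes with a window, 5 held an ISRE match and 2 a GAS match, and of the other 20 genes, 11 held an ISRE match and 5 a GAS match. These are matches of letters and were not examined for binding.

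The 34 genes did not differ in a single direction. The 7 interferon-inducible GTPase genes were higher on average in MaeaCsf1r-Cre HSCs, with a median log2 fold change of 0.80, while the other 27 had a median of -0.26, with 19 of them lower, against 60.9% lower over all genes tested. The log2 fold change, given with its standard error (SE), is the difference of group means of log2(CPM + 1), MaeaCsf1r-Cre minus control, so it understates the change of genes with low CPM. Over all 34 the median was -0.18 with 15 higher and 19 lower, and over all 12955 genes tested it was -0.06 with 39.1% higher.

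Groups did not overlap, meaning that every library of one group lay above every library of the other, for 9 of the 34 genes (26.5%), against 8.55% of all genes tested. These were 5 GTPase genes higher in MaeaCsf1r-Cre (2.49% of all genes tested) and *Ifit1*, *Oas2*, *Dhx58* and *Usp18*, which were lower there (6.06% of all genes tested). None of the 34 passed an adjusted p of 0.05 in limma's moderated test, where 0.00772% of all genes tested did, and the smallest adjusted p of any of them was 0.967. At an unadjusted p under 0.05, 5 were higher and 6 were lower, against 0.803% and 3.19% of all genes tested. With the replicate number as a block, 5 were higher and 9 lower at an unadjusted p under 0.05, against 3.11% and 10.8%, and again 0 passed the adjusted threshold. The p-values set each difference of group means against the spread between these libraries. Each library is a pool from a pair of mice, so that is not the spread between single animals.

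**Figure D1:**
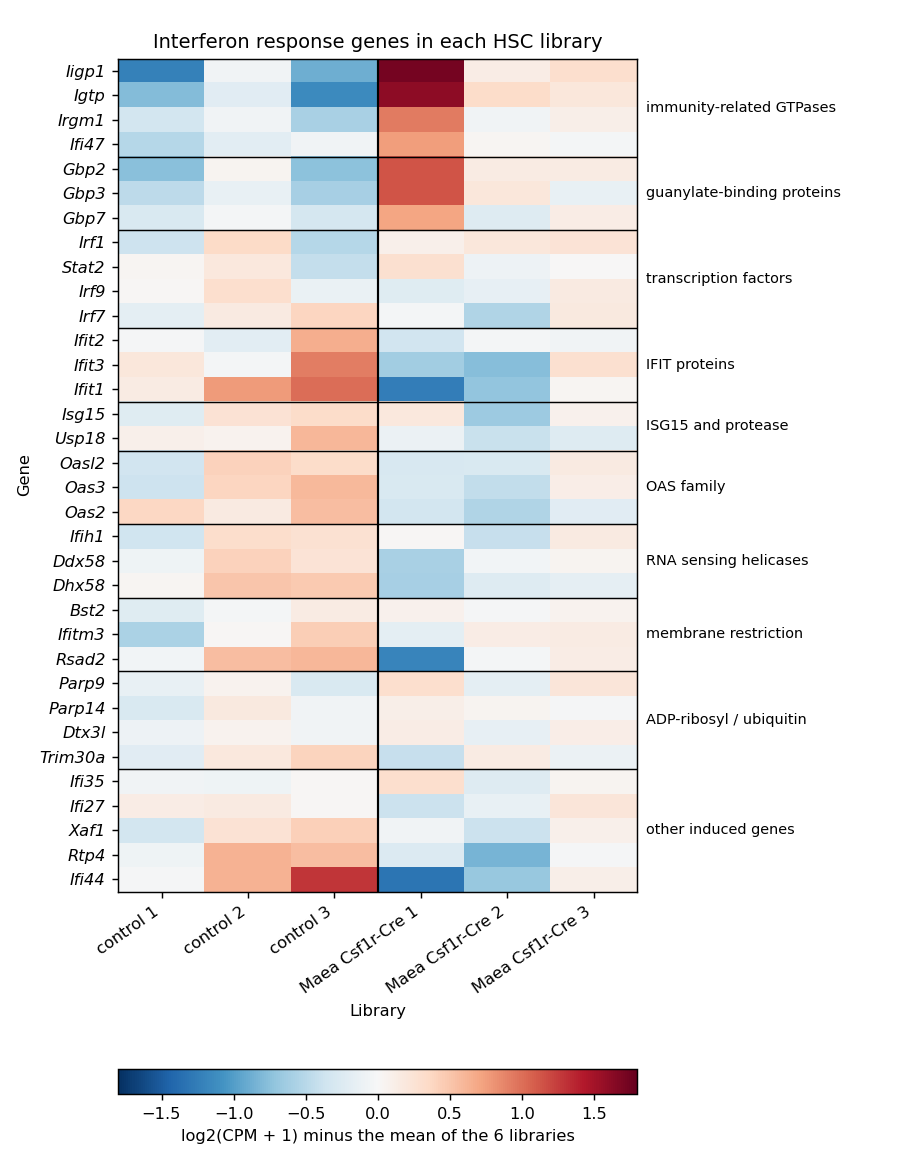
Level of each interferon response gene (vertical axis, grouped by role) in each of the 6 HSC libraries (horizontal axis), as log2(CPM + 1) minus the mean of the 6 libraries, red above and blue below that mean. The 7 GTPase genes at the top are deepest red in MaeaCsf1r-Cre replicate 1, and *Ifit1*, *Ifi44*, *Dhx58* and *Rsad2* have their lowest values in the same library.

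The immunity-related GTPases (IRGs) are interferon-induced proteins that act on the membranes of vacuoles holding intracellular pathogens, and all 4 measured here were higher in every MaeaCsf1r-Cre library than in every control library. *Igtp* (chromosome 11, 58199556 to 58207591), whose product is also called IRGM3, was at 88.5, 132 and 68.1 CPM in control replicates 1, 2 and 3 and at 465, 192 and 175 CPM in MaeaCsf1r-Cre replicates 1, 2 and 3. MaeaCsf1r-Cre replicate 1 stood far above the others, and replicates 2 and 3 were still above the highest control. The mean was 96.2 ± 32.6 CPM in control and 278 ± 163 CPM in MaeaCsf1r-Cre HSCs (SD, n = 3 each), a ratio of 2.89. *Igtp* thus had a log2 fold change of 1.42 (SE 0.39), for which limma gave an adjusted p of 0.967, or 0.198 under the replicate block. The annotated span of another IRG gene, *Irgm2* (chromosome 11, 58199618 to 58222782), overlaps that of *Igtp* on the same strand. Reads in the shared span may therefore have been divided between the genes. *Irgm2* had a log2 fold change of 0.56 with overlapping groups.

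*Iigp1*, which encodes a GTPase that coats the vacuole of *Toxoplasma*, was at 44.9, 101 and 57.0 CPM in control and at 354, 117 and 131 CPM in MaeaCsf1r-Cre replicates 1, 2 and 3. Here too the first MaeaCsf1r-Cre replicate was the highest, and the gap between the groups was narrow, from control replicate 2 to MaeaCsf1r-Cre replicate 2. At 1.45 (SE 0.45) it had the highest log2 fold change of the 34 genes.

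*Irgm1* (chromosome 11, 48861968 to 48871683) encodes a regulator of the other IRGs whose loss is known to disturb HSC quiescence. It was at 137, 164 and 114 CPM in control and at 329, 165 and 184 CPM in MaeaCsf1r-Cre libraries. The second replicates of the groups were nearly equal, and the log2 fold change was 0.65 (SE 0.26). *Ifi47* (chromosome 11, 49076587 to 49096974), another IRG, was at 119.8, 150.5 and 163 CPM in control and at 289.9, 175 and 168 CPM in MaeaCsf1r-Cre libraries. Beyond MaeaCsf1r-Cre replicate 1 its groups lay close together, and the log2 fold change was 0.51 (SE 0.23).

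The guanylate-binding proteins (GBPs) are larger GTPases that gather on pathogen membranes and are strongly induced by interferon gamma. *Gbp2* (chromosome 3, 142620602 to 142638008) was at 38.1, 67.3 and 38.5 CPM in control and at 143, 71.5 and 72.0 CPM in MaeaCsf1r-Cre replicates 1, 2 and 3. The groups did not overlap, although control replicate 2 came close, and the mean went from 48.0 ± 16.7 to 95.5 ± 41.3 CPM (SD, n = 3 each). That is a log2 fold change of 0.95 (SE 0.32).

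*Gbp3* (chromosome 3, 142560026 to 142573209) was at 30.5, 39.2 and 28.2 CPM in control and at 95.5, 49.4 and 39.0 CPM in MaeaCsf1r-Cre libraries. It was higher in MaeaCsf1r-Cre within each replicate number, but its groups overlapped by a narrow margin, and its log2 fold change was 0.80 (SE 0.31). *Gbp7* had a mean of 102 ± 11.2 CPM in control and 141 ± 47.2 CPM in MaeaCsf1r-Cre HSCs (SD, n = 3 each), with overlapping groups and a log2 fold change of 0.41 (SE 0.23). At replicate 2 it was lower in MaeaCsf1r-Cre, at 99.9 CPM against 115 CPM in control. The GBP genes lie in a cluster of similar sequence, so reads shared between them may have been split between them.

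For these 7 GTPase genes the size of the difference rested largely on MaeaCsf1r-Cre replicate 1, while the direction of the group means did not. Without that library the median log2 fold change of the 7 genes was 0.43, and without replicate 1 of both groups it was 0.39, with all 7 higher in both cases. *Igtp* had a log2 fold change of 0.98 and *Iigp1* of 0.95 without MaeaCsf1r-Cre replicate 1, and *Irgm1* had 0.35 and *Ifi47* 0.26. In the same fit *Gbp2* had 0.62, *Gbp3* 0.43 and *Gbp7* 0.16. Relative to the mean of the 6 libraries, the median level of the 7 genes on the log2 scale was -0.51, -0.07 and -0.59 in control and 1.13, 0.14 and 0.14 in MaeaCsf1r-Cre replicates 1, 2 and 3. MaeaCsf1r-Cre replicate 1 was also the deepest library, at 60734000 reads behind the scaling against 32862000 to 44192000 in the others, and had the highest summed level of 6 erythroid markers and the lowest of the HSC markers. Erythroid markers summed to 3837, 1391 and 804 CPM in control and to 4129, 1615 and 1824 CPM in MaeaCsf1r-Cre replicates 1, 2 and 3. The part of depth and of other cells in the result was not tested. In bulk RNA, more cells expressing a gene and more RNA per cell cannot be told apart.

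**Figure D2:**
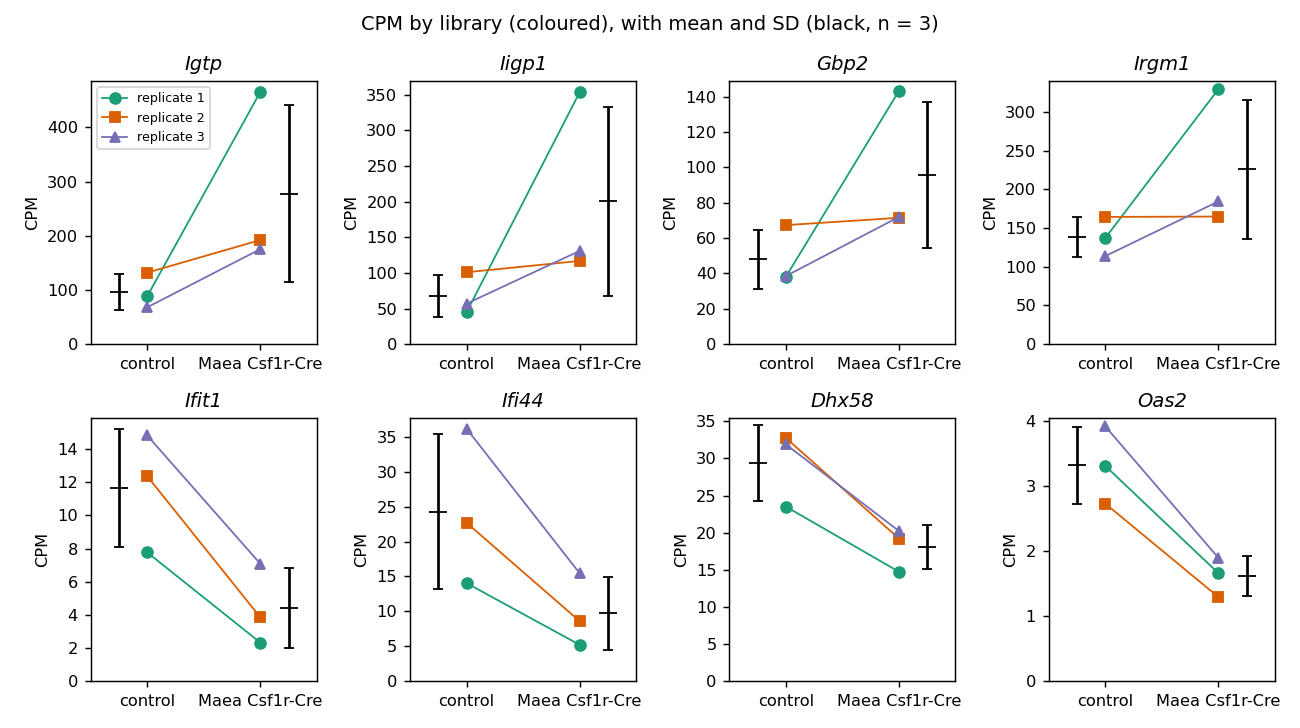
CPM (vertical axes, starting at 0) of 4 GTPase genes (top) and 4 antiviral genes (bottom) in each library by group (horizontal axes), with lines joining libraries of the same replicate number and black bars for the mean and SD (n = 3). *Igtp*, *Iigp1*, *Gbp2* and *Irgm1* are higher in MaeaCsf1r-Cre at every replicate number with the largest step at replicate 1, while *Ifit1*, *Ifi44*, *Dhx58* and *Oas2* are lower at every replicate number.

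All 11 IFIT, ISG15 and USP18, OAS and helicase genes had lower means in MaeaCsf1r-Cre HSCs. The IFIT proteins bind viral RNA that lacks host-type caps, and *Ifit1* (chromosome 19, 34640871 to 34650009) was at 7.76, 12.4 and 14.8 CPM in control and at 2.31, 3.84 and 7.08 CPM in MaeaCsf1r-Cre replicates 1, 2 and 3. Its highest MaeaCsf1r-Cre library was below its lowest control library. The mean went from 11.7 ± 3.59 to 4.41 ± 2.43 CPM (SD, n = 3 each), a ratio of 0.379. At -1.28 (SE 0.36) its log2 fold change was the lowest of the 34 genes, and limma gave an adjusted p of 0.967, or 0.101 under the replicate block. *Ifit2* had a mean of 27.5 ± 9.24 CPM in control and 21.5 ± 2.51 CPM in MaeaCsf1r-Cre HSCs (SD, n = 3 each), with overlapping groups. *Ifit3*, at means of 2.20 ± 1.17 and 0.953 ± 0.830 CPM (SD, n = 3 each), was lower in MaeaCsf1r-Cre at each replicate number with overlapping groups, and reads of its near copy *Ifit3b* cannot be separated with certainty.

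The OAS enzymes make short oligoadenylates that activate RNase L. *Oas2* (chromosome 5, 120730333 to 120749853) was at 3.31, 2.73 and 3.91 CPM in control and at 1.66, 1.29 and 1.89 CPM in MaeaCsf1r-Cre libraries, with no overlap. The spread within each group was small beside the difference, and the log2 fold change was -0.72 (SE 0.22). *Oas3* had means of 26.7 ± 8.78 and 19.5 ± 4.27 CPM and *Oasl2* of 64.0 ± 17.1 and 52.0 ± 9.95 CPM in control and MaeaCsf1r-Cre HSCs (SD, n = 3 each), both with overlapping groups.

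The RIG-I-like helicases sense viral RNA in the cytoplasm. *Dhx58* (chromosome 11, 100694884 to 100704271), which encodes LGP2, the member without signalling domains, was at 23.5, 32.8 and 31.9 CPM in control and at 14.7, 19.2 and 20.2 CPM in MaeaCsf1r-Cre replicates 1, 2 and 3. All 3 MaeaCsf1r-Cre libraries lay below all 3 control libraries, at a log2 fold change of -0.67 (SE 0.19) with an adjusted p in limma of 0.967, or 0.167 under the replicate block. *Ddx58*, encoding RIG-I, was lower in MaeaCsf1r-Cre at each replicate number, at 43.3 ± 7.63 CPM in control and 33.1 ± 7.55 CPM in MaeaCsf1r-Cre HSCs (SD, n = 3 each), with overlapping groups. *Ifih1*, encoding MDA5, was at 39.1 ± 9.75 and 34.6 ± 7.08 CPM (SD, n = 3 each), again with overlap.

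ISG15 is a ubiquitin-like modifier, and USP18 removes it from proteins and also restrains type I interferon signalling at IFNAR. *Usp18* (chromosome 6, 121245906 to 121270917) was at 16.4, 16.0 and 23.8 CPM in control and at 14.2, 11.3 and 12.9 CPM in MaeaCsf1r-Cre libraries. The groups did not overlap, control replicate 3 stood above the rest, and the log2 fold change was -0.50 (SE 0.20). For *Isg15* the means were 9.86 ± 2.10 and 8.28 ± 2.69 CPM in control and MaeaCsf1r-Cre HSCs (SD, n = 3 each), and the groups overlapped.

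*Ifi44* (chromosome 3, 151730922 to 151749960) encodes an interferon-induced antiviral protein. It was at 14.0, 22.7 and 36.2 CPM in control and at 5.19, 8.58 and 15.5 CPM in MaeaCsf1r-Cre replicates 1, 2 and 3. Replicate 3 was the highest and replicate 1 the lowest in both groups, so the groups overlapped while each MaeaCsf1r-Cre library lay below the control of its number. Its log2 fold change was -1.26 (SE 0.42), and with the replicate block its adjusted p of 0.0615 from limma was the smallest of the 34 genes. *Rtp4*, which encodes a receptor transporter protein induced by type I interferon, was at 27.5, 45.4 and 43.2 CPM in control and at 24.3, 15.9 and 28.6 CPM in MaeaCsf1r-Cre libraries. It was lower at each replicate number, least so at replicate 1, with a log2 fold change of -0.74 (SE 0.27). Of the other induced genes, *Ifi27*, *Ifi35* and *Xaf1* had log2 fold changes of -0.20, 0.08 and -0.24, each with overlapping groups.

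The restriction factors that act at membranes were split. *Rsad2*, encoding viperin, which makes a chain-terminating nucleotide, was lower in MaeaCsf1r-Cre at each replicate number, with means of 15.5 ± 3.83 CPM in control and 9.45 ± 4.34 CPM in MaeaCsf1r-Cre HSCs (SD, n = 3 each). *Bst2*, the gene of tetherin, was at 44.2 ± 5.72 and 46.5 ± 1.66 CPM (SD, n = 3 each). *Ifitm3*, which blocks entry of viruses from endosomes and is known to be expressed in stem cells without interferon, had the highest mean CPM of the 34 genes, a value not scaled to length. It was at 200.3, 302 and 406 CPM in control and at 264, 329 and 329.5 CPM in MaeaCsf1r-Cre libraries, all of which lay within the control range. Its log2 fold change of 0.07 (SE 0.24) turned to -0.20 without control replicate 1.

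Among ADP-ribosylation and ubiquitin ligase genes, *Parp9*, *Parp14* and *Dtx3l*, whose products act in interferon signalling and DNA repair, had log2 fold changes of 0.23, 0.10 and 0.07, and *Trim30a* had -0.26. The groups overlapped for all 4, and *Trim30a* was lower in MaeaCsf1r-Cre at each replicate number.

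**Figure D3:**
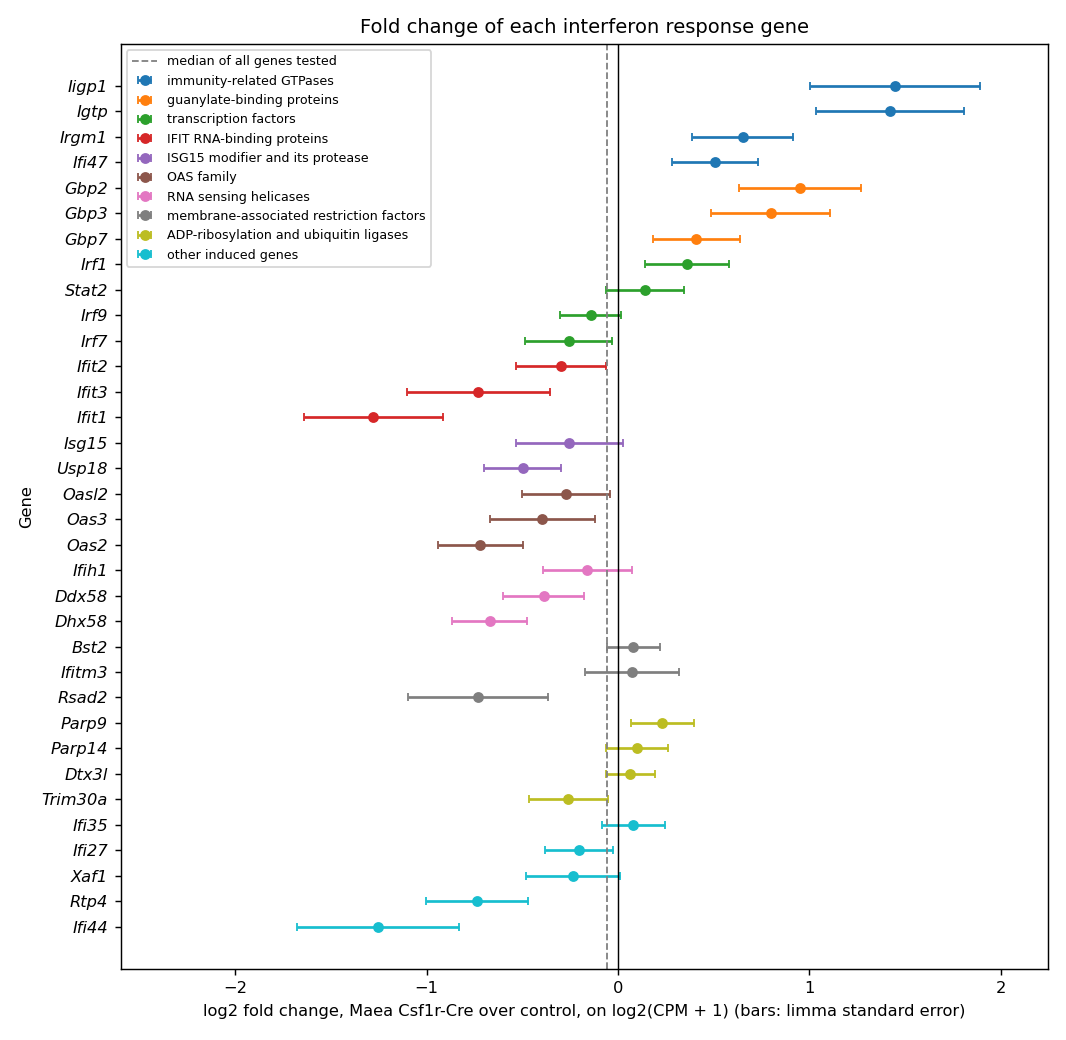
Log2 fold change (horizontal axis, MaeaCsf1r-Cre over control on log2(CPM + 1), with bars for limma's standard error) of each of the 34 genes (vertical axis), coloured by role, with a dashed line at the median of all genes tested (-0.06). The IRG and GBP genes lie to the right, from 0.41 to 1.45, and the IFIT, OAS, helicase, ISG15 and USP18 genes lie to the left of the zero line.

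For all 4 transcription factors that act between the receptors and these genes, the groups overlapped. *Stat2*, the STAT specific to type I and III interferon signalling, was at 24.1, 26.8 and 17.2 CPM in control and at 29.0, 22.0 and 23.5 CPM in MaeaCsf1r-Cre replicates 1, 2 and 3. *Irf9*, its partner in the ISRE-binding complex, was at 81.0, 98.7 and 73.6 CPM in control and at 68.2, 71.5 and 89.2 CPM in MaeaCsf1r-Cre libraries. *Irf7*, the factor that amplifies type I interferon production, was at 24.1, 30.6 and 36.0 CPM in control and at 26.7, 18.5 and 30.9 CPM in MaeaCsf1r-Cre libraries. None of these 3 was higher or lower at every replicate number, and the log2 fold changes were 0.14 (SE 0.20) for *Stat2*, -0.14 (SE 0.16) for *Irf9* and -0.26 (SE 0.23) for *Irf7*.

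*Irf1* encodes a factor induced by interferon gamma that acts on the GTPase genes. It was at 69.0, 114 and 62.0 CPM in control and at 94.8, 103 and 106 CPM in MaeaCsf1r-Cre libraries. Control replicate 2 was the highest of all 6, so the groups overlapped, and the other 2 control libraries were below every MaeaCsf1r-Cre library. This gave a log2 fold change of 0.36 (SE 0.22), with an adjusted p in limma of 0.967, or 0.382 under the replicate block.

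By role, the median log2 fold change was 1.04 for the 4 IRG and 0.80 for the 3 GBP genes, and between -0.73 and -0.38 for the IFIT, ISG15 and USP18, OAS and helicase genes. It was -0.00 for the transcription factors, 0.07 for the membrane factors, 0.08 for the ADP-ribosylation and ubiquitin ligase genes and -0.24 for the other induced genes. Of the 27 genes that are not GTPases, 10 were lower in MaeaCsf1r-Cre at every replicate number, against 23.5% of all genes tested, and 0 were higher at every one, against 13.2%. Without replicate 1 of both groups 24 of the 27 were lower with a median of -0.43, against 62.9% lower and a median of -0.07 over all genes tested. Without MaeaCsf1r-Cre replicate 1 alone 20 of the 27 were lower with a median of -0.20, against 62.2% and -0.05. In that second case *Rsad2* went from -0.73 to -0.32 and *Ddx58* from -0.39 to -0.19. Rescaling the libraries by median ratios or by quantiles left 15 of the 34 higher and 19 lower.

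**Figure D4:**
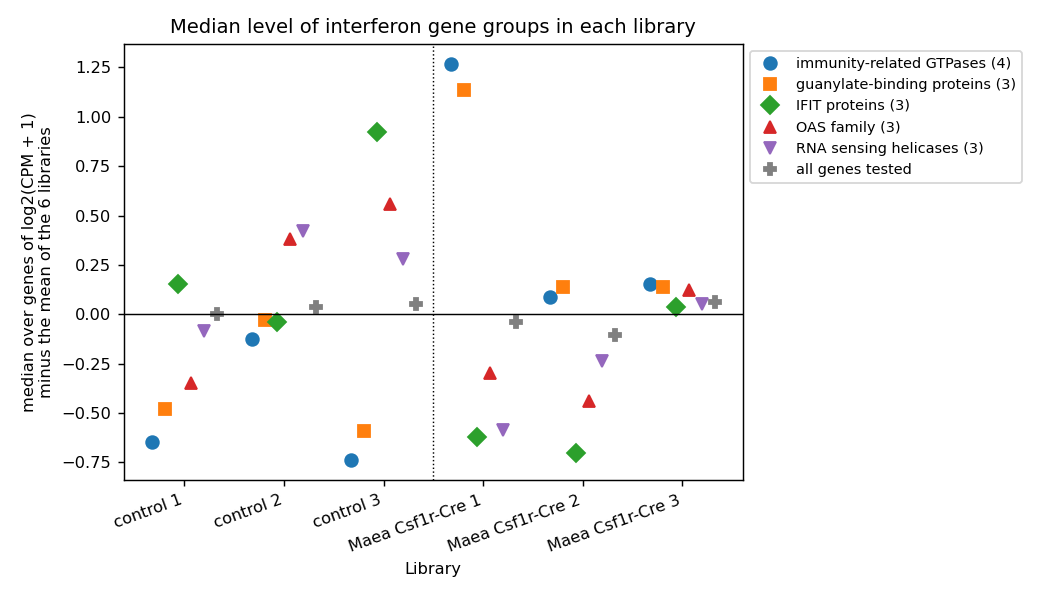
Median over the genes of each group of log2(CPM + 1) minus the mean of the 6 libraries (vertical axis) in each HSC library (horizontal axis), for 5 groups of interferon response genes and for all genes tested. The IRG and GBP medians are at or below 0 in the control libraries and above 0 in the MaeaCsf1r-Cre libraries, and replicate 1 of MaeaCsf1r-Cre is the highest.

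A wider list of 103 interferon pathway genes outside the 34 was examined for comparison, of which 83 passed the filter. Of the 83, 36 were higher and 47 lower, with a median log2 fold change of -0.05, close to that of all genes tested. None passed the adjusted threshold of 0.05 in limma, with or without the replicate block. At an unadjusted p under 0.05, 5 were higher and 3 lower without the block, against 0.803% and 3.19% of all genes tested. With the block 9 were higher and 14 lower, against 3.11% and 10.8%. The groups did not overlap for 8 of the 83 (9.64%), against 8.55% of all genes tested.

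Of the 7 receptor and kinase genes 2 were higher and 5 lower, with a median log2 fold change of -0.17. *Ifnar1*, a chain of the type I receptor, had means of 56.2 CPM in control and 42.6 CPM in MaeaCsf1r-Cre HSCs, and was lower at each replicate number with a log2 fold change of -0.37. The other chain, *Ifnar2*, had 0.05. The log2 fold change was 0.15 for *Ifngr1* and -0.24 for *Ifngr2*, the chains of the type II receptor, and -0.18, -0.17 and -0.07 for the kinases *Jak1*, *Jak2* and *Tyk2*. The groups overlapped for all 7 genes. Transcripts of the ligands were at or near 0, since *Ifna1*, *Ifna4*, *Ifna5* and *Ifnb1* were at 0 in every library, and *Ifna2* and *Ifng* were each seen in 1 library at less than the level of 3 reads, which was 0.0494 to 0.0913 CPM.

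Of the 5 genes of the wider list with the smallest unadjusted p, 4 are given here, each with a higher mean in MaeaCsf1r-Cre. *Tgtp1*, a further IRG gene, was at 136, 225 and 141 CPM in control and at 614, 263 and 308 CPM in MaeaCsf1r-Cre replicates 1, 2 and 3, with no overlap and a log2 fold change of 1.17 (SE 0.33). *Tgtp2* was at 386, 534 and 387 CPM in control and at 1144, 532 and 751 CPM in MaeaCsf1r-Cre libraries, with overlap at the second replicates. *Tgtp1* and *Tgtp2* are near-identical copies, so the division of reads between them is uncertain, and both had the first MaeaCsf1r-Cre replicate highest. Without replicate 1 of both groups the log2 fold change was 0.67 for *Tgtp1* and 0.47 for *Tgtp2*.

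*Socs3*, the gene of an inhibitor of JAK signalling downstream of several cytokines, was at 10.1, 11.3 and 4.59 CPM in control and at 17.4, 39.3 and 18.0 CPM in MaeaCsf1r-Cre libraries. In this case the second MaeaCsf1r-Cre replicate was the highest, and the groups did not overlap. The difference was 1.40 on the log2 scale (SE 0.40), with an adjusted p in limma of 0.967, or 0.141 under the replicate block. *Lgals9*, encoding galectin-9, was at 713, 613 and 427 CPM in control and at 1772, 754 and 989.9 CPM in MaeaCsf1r-Cre libraries, again without overlap and with replicate 1 highest. Its log2 fold change was 0.94 (SE 0.32), and 0.60 without MaeaCsf1r-Cre replicate 1. The wider list held 10 tested interferon-inducible GTPase genes (IRG, GBP and *Gvin1*), with *Tgtp1* and *Tgtp2* counted among them. Of these 10, 8 were higher, with a median log2 fold change of 0.23. Without replicate 1 of both groups that median was -0.02, with 5 higher and 5 lower. The remaining 51 induced genes of that list had a median of -0.08, with 17 higher.

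Markers of other cells were examined beside these genes. By the study's methods HSCs were sorted as Sca-1+ c-Kit+ CD150+ CD48- cells lacking CD3e, B220, Gr-1, CD11b and Ter119, a gate that removes most mature blood cells. Of 14 macrophage markers, *C1qa*, *C1qb*, *C1qc* and *Cd5l* were lower in every MaeaCsf1r-Cre library, against 6.06% of all genes tested, and 0 were higher in every one, against 2.49%. None of the 14 was at 0 in all libraries, but only 9 passed the filter, and *Cd5l* was among those under it. Their summed level was 63.2 to 152.6 CPM in control and 39.7 to 113 CPM in MaeaCsf1r-Cre libraries.

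Of 9 plasmacytoid dendritic cell markers, 4 were at 0 in every library, among them the defining marker *Siglech*. Another, *Ccr9*, was under the filter and lower in every MaeaCsf1r-Cre library, against 6.06% of all genes tested. The list summed to 62.6 to 106.8 CPM in control and 39.3 to 84.1 CPM in MaeaCsf1r-Cre libraries, nearly all of it from *Tcf4* and *Runx2*, the only 2 of the 9 above the filter and genes that other blood cells also express. The 9 monocyte and neutrophil markers summed to 28.0 to 234.5 CPM in control and 4.67 to 118 CPM in MaeaCsf1r-Cre libraries. Of these 9, 2 were lower in every MaeaCsf1r-Cre library, both under the filter, against 6.06% of all genes tested.

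Of 8 B cell markers, *Ms4a1*, *Pax5* and *Igll1* were at 0 throughout and *Cd79b* alone was above the filter, with sums of 16.96 to 28.0 CPM in control and 13.6 to 24.7 CPM in MaeaCsf1r-Cre libraries. Of 8 T and NK cell markers, *Cd3g*, *Ncr1* and *Gzma* were at 0 throughout and *Lck*, *Nkg7* and *Klrb1c* were above the filter, with sums of 50.4 to 76.3 CPM in control and 50.8 to 97.0 CPM in MaeaCsf1r-Cre libraries. The 5 megakaryocyte markers summed to 213 to 969 CPM in control and 284 to 593 CPM in MaeaCsf1r-Cre libraries. The macrophage, plasmacytoid dendritic cell, monocyte and neutrophil, B cell and HSC marker sums all ranged lower in MaeaCsf1r-Cre libraries. The erythroid and the T and NK cell marker sums ranged higher there. The ranges overlapped between the groups for every list, and the part of these cells in the results was not tested.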

How the data were processed

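RNA of sorted HSCs from 3 control and 3 MaeaCsf1r-Cre libraries was analysed. The authors made cDNA with SMART-Seq v4 and libraries with Nextera XT, and per the labels and methods used Trim Galore, STAR 2.5.3a, mm10, Ensembl transcripts and Partek Flow. Whether counting used strand is not given in the sources used here. The values the authors deposited are CPM. An offset of 0.0001 in every value was subtracted here, and the listed genes take 75.2 to 80.2% of the total. Dates had replaced 27 symbols, and 4 rows had a symbol that was not unique.

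Steps between low CPM values gave the depth behind the scaling: 32862000 to 39490000 reads for control and 44012000 to 60734000 reads for MaeaCsf1r-Cre. Of low values 79.1 to 80.4% lay within 0.05 of a whole read, so counts were not recovered and no count test was used. The level of 3 reads covers counting error only.

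The 12955 genes that reached a CPM of 1 in 3 or more libraries entered a limma fit of log2(CPM + 1), with moderated two-sided tests and a trend of variance on mean, MaeaCsf1r-Cre against control, with Benjamini-Hochberg adjustment over all of them and a threshold of 0.05. Replicate numbers come from the sample titles, and no source states that they pair libraries. Same-numbered libraries deviated together across genes (Pearson's r of 0.627, 0.523 and 0.397, against -0.459 to -0.0538 for different numbers), so a fit that blocks on replicate number was added.

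The 34 genes, their roles and the wider and marker lists were chosen with earlier results of these data known, and no test was made over a list. Values in every library are given for the transcription factors, for genes whose groups do not overlap, for the 10 with the smallest unadjusted p and for the 3 with the highest mean CPM, and of the wider list for the 5 with the smallest unadjusted p. The values of 1 gene of the wider list are not reported here. Positions are those of GENCODE M21 (GRCm38), and promoter windows are from RefSeq. *Usp18*, *Oas2*, *Dhx58*, *Iigp1*, *Parp9*, *Parp14*, *Ifi27* and *Rtp4* had no window.

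Alternatives were a filter requiring a CPM of 10, no filter at all, a pseudocount of 0.1, median-ratio rescaling, quantile normalization, the block, no mean-variance trend and each library left out, and, added after seeing the data, the block without replicate 1 of both groups. On simulated data from the same table (12955 genes), 107 of 200 genes changed 2-fold and 183 of 200 changed 4-fold were recovered. There were 4 and 5 false calls. The changed genes were drawn only from genes of higher mean level. Noise was drawn independently for every gene, without the shared deviations of same-numbered libraries. R 4.3.3, limma 3.58.1, Python 3.11.15, pandas 2.3.3, numpy 2.4.6 and matplotlib 3.10.9 were used.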

Additional observations from a re-analysis of the deposited data

How the results depend on the processing

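None of the 34 genes passed the adjusted threshold under any of the 14 alternatives, and 4 (without control replicate 3) to 14 (with the replicate block) had an unadjusted p under 0.05, against 2.55% and 13.9% of all genes in the same fits. The replicate block changed no call, and 1 gene of all those tested passed with and without it. That count was 0 with the filter at a CPM of 10, 0 with the replicate block without replicate 1 of both groups, and 0 to 3 when each library was left out in turn (0 without control replicate 2 or 3, and 3 without MaeaCsf1r-Cre replicate 3).

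The number of the 34 genes whose groups did not overlap was 9, and it was 7 with the filter at a CPM of 10, which tested 31 of them, and 10 with median-ratio rescaling. With fewer libraries to compare it was 9 to 19 when each was left out, and 19 without replicate 1 of both groups. It was 19 without control replicate 1, 14 without control replicate 2 and 15 without MaeaCsf1r-Cre replicate 3. Smaller groups fail to overlap more readily, so the larger counts are not stronger results. The share over all genes was not computed under these alternatives, and the 8.55% given above holds only for the main setting with all 6 libraries.

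The median log2 fold change of the 34 genes stayed negative, from -0.29 to -0.02 when each library was left out. That of the wider list was -0.14 to -0.02 in the same fits and 0.01 with median-ratio rescaling and with quantile normalization, which moved the median of all genes from -0.06 to 0.0003 and 0.02 and the number of higher genes from 5060 to 6481 and 6883. Of the 17 genes given in every library, 15 kept their direction throughout. *Ifitm3* turned to -0.090 with the replicate block without replicate 1 of both groups, and ran from -0.20 (without control replicate 1) to 0.31 when each library was left out. *Stat2* ran from -0.040 (without control replicate 3) to 0.27. The cause was not tested. *Maea* had -0.48 to -0.29 when each library was left out.

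With 3 libraries in each group, 107 of 200 genes simulated with a 2-fold change, drawn only from genes of higher mean level, were recovered. Those 200 genes were changed together, and recovery was not measured for the interferon response genes, so it does not give the power for them. In the data themselves, *Igtp* had a ratio of means of 2.89 and an adjusted p in limma of 0.967. The CPM table does not hold the read counts behind low values.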
